A study of Mus musculus with 6 samples.

Results

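Enterocytes of a mouse intestinal monolayer were compared after 25 h and after 13 h of tunicamycin. They were the cells that the deposited names call Enterocyte and in which at most 25% of unique molecular identifiers (UMIs, each standing for 1 captured transcript) came from the mitochondrial genome. There were 2285 such cells among the 5122 deposited cells, 686 and 726 in the libraries of 13 h and 426 and 447 in those of 25 h. The study put day-3 differentiated monolayers, grown on inserts from intestinal spheroids, through single-cell RNA sequencing with 10x Genomics 3′ V2 chemistry, 2 libraries a group. The DMSO group (1046 and 1037 enterocytes) received vehicle, and both other groups received 0.5 µg/ml tunicamycin. The sets were harvested together, so that the 13 h set had spent 12 h in DMSO before the drug and the groups differ in when exposure began, not in the age of the culture. All 6 libraries carry the same background, a floxed-STOP Cas9 transgene at Rosa26 crossed to CMV-Cre on B6, in which Cre is driven by a promoter active in most tissues. The cultures were of epithelium alone, and the labels give colonic spheroids as their origin in one place and small intestine in another. The series text calls the libraries biological replicates. Whether they came from separate animals or only separate wells is not given, so the spread between them may be partly technical.

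Tunicamycin blocks the enzyme encoded by Dpagt1, which makes the first sugar-lipid intermediate of N-linked glycosylation. Glycoproteins then misfold in the endoplasmic reticulum (ER), and the sensors IRE1, PERK and ATF6 raise chaperones, degradation factors and the transcription factors ATF4 and CHOP, which together form the unfolded protein response. Enterocytes are the absorptive cells of the gut. Their brush border enzymes, lipid-exporting apolipoproteins and carriers for minerals, bile acids and nutrients are largely membrane or secreted proteins that pass through the ER.

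Some defining genes of absorptive cells were high in the class and others were near 0. Levels are given in CPM, the UMIs of a gene per 1000000 UMIs summed over the enterocytes of a library, after TMM scaling, which evens out differences in composition between libraries. Krt20, a keratin of mature surface cells, stood at 758 to 980.4 CPM in the 4 tunicamycin libraries, Cdhr5, a cadherin of the microvilli, at 1112 to 1309 CPM in the 4 tunicamycin libraries, and Car1, a carbonic anhydrase, at 1559.8 to 2272 CPM in the 4 tunicamycin libraries. Fabp1 had 1 UMI in all 6 libraries together, Car4 had 3 and Slc26a3 had 21, so these 3 commonly used absorptive markers were near 0. Goblet markers were present, at a summed level of 2378 to 4025 CPM per library. Single defining markers of several other cell types were near 0. Ptprc of leukocytes had 0 UMIs in every library, Col1a1 of fibroblasts had 1, and Dclk1 of tuft cells and Lgr5 of stem cells had 4 each. Wider lists were not all near 0. The 11 stem and progenitor markers summed to 270 to 282 CPM per library, and the 13 enteroendocrine markers to 25.1 to 46.4 CPM. The Paneth gene Defa24 had 19 UMIs, all in the first 13 h library.

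Enterocyte UMIs per library were between 7760117 and 17429023, and the median enterocyte held 16301.5 and 16643 UMIs at 13 h and 16256 and 17862 at 25 h. The median share of mitochondrial UMIs, by which the cells were filtered, was 8.71% and 8.53% at 13 h and 7.41% and 7.40% at 25 h. Enterocytes made up 87.9% and 88.4% of kept cells at 13 h, and 79.3% (95% exact binomial interval 75.7 to 82.7) and 82.0% (78.5 to 85.2) at 25 h. A level summed over a class does not tell fewer cells of a subtype from less RNA per cell. Of 11145 genes tested with edgeR's quasi-likelihood test, 1163 (10.4%) were higher and 1217 (10.9%) were lower at 25 h at an adjusted p below 0.05, which is 21.4% in either direction. Of these, 86 higher and 84 lower genes differed by at least 2-fold. Counts within the gene lists below are to be set beside the 10.4% and 10.9% of all genes. Without the first 13 h library 766 genes were higher, and without the second 773. The 2 libraries of 25 h lay outside the range of the 2 of 13 h, on either side, for 60.2% of all genes tested. The median log2 fold change over all genes was 0.0018.

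The lowest fold change among well-measured genes belonged to Mt2, which with Mt1 encodes metallothioneins, small proteins that bind zinc and copper. Mt2 stood at 159.7 and 161 CPM at 13 h and 9.19 and 17.0 CPM at 25 h, against 208 and 263 CPM in DMSO. The fall between 13 h and 25 h was 12.1-fold (log2 fold change -3.60 ± 0.16 (SE), adjusted p = 6.63e-09). Mt1 stood at 921 and 983 CPM at 13 h and 208 and 273 CPM at 25 h, against 1791 and 1832 CPM in DMSO, a fall of 3.95-fold (log2 fold change -1.98 ± 0.09 (SE), adjusted p = 6.3e-09). For both genes the libraries of 13 h and 25 h did not overlap, which the rule for naming top genes required. The same held for 60.2% of all genes tested. The genes are neighbours on mouse chromosome 8 (Mt2 at chr8:94172664-94173568 and Mt1 downstream on the same strand, GRCm38). Metallothionein genes are known targets of the zinc-sensing factor MTF1, which binds the metal response element. The 250 bases before each RefSeq start (GRCm38.p6, + strand) are shown because these neighbouring genes both fell; capitals mark the core of that element, TGCACNC or TGCGCNC, on either strand.
Mt2, chr8:94172368-94172617: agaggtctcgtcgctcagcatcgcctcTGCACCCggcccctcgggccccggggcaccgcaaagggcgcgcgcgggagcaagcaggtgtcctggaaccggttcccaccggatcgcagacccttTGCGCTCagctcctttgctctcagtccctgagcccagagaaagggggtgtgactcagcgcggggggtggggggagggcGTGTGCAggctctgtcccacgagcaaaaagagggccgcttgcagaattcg
Mt1, chr8:94178839-94179088: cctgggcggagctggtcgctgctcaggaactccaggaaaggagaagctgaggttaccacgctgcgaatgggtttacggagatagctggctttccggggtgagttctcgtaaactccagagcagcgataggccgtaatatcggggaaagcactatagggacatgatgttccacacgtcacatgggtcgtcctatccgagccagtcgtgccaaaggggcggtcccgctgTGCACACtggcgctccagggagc
The Mt2 window holds 3 matches and the Mt1 window 1. Of 15 metallothionein and zinc transport genes matched to the windows by symbol, 9 hold a match. Slc30a4, whose change did not pass, is among them. Of 32851 promoter windows of this length, 21.4% hold at least 1 such match and 1.26% hold at least 3. A match is a string of letters, not a shown binding site.

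Zinc carriers moved less. Of 17 tested members of a list of metallothioneins and zinc transporters, 10 fell, with a median log2 fold change over the list of -0.30. Slc30a10, a zinc and manganese exporter, fell from 358 and 354 CPM to 212 and 219.9 CPM (log2 fold change -0.72 ± 0.05 (SE), adjusted p = 1.48e-07). Slc30a1, the zinc exporter of the plasma membrane, fell from 18.6 and 18.2 CPM to 10.2 and 9.23 CPM (log2 fold change -0.92 ± 0.11 (SE), adjusted p = 5.14e-05). Slc39a14, an importer of zinc, manganese and iron, fell from 74.6 and 70.7 CPM to 54.8 and 58.6 CPM, and Slc39a7, which releases zinc from the ER, fell from 67.3 and 79.8 CPM to 52.1 and 56.2 CPM. The remaining 7 members did not pass, among them Slc30a4 at 98.1 and 94.4 CPM at 13 h and 87.4 and 88.7 CPM at 25 h. With every cell thinned to 5000 UMIs, 6 members of the list were lower, and the adjusted p of Slc39a14 missed the threshold.

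Most tested genes of calcium and phosphate uptake were also lower. S100g encodes calbindin-D9k, the vitamin D-induced protein that ferries calcium across the enterocyte, and lies on chrX:162961992-162964599. It stood at 1247 and 1060.2 CPM at 13 h and 267 and 259 CPM at 25 h, against 1459 and 1551 CPM in DMSO, and fell 4.39-fold (log2 fold change -2.13 ± 0.07 (SE), adjusted p = 4.48e-10). Slc34a2, at chr5:53038081-53071664, encodes a sodium-dependent phosphate carrier of the apical membrane. It stood at 83.1 and 90.0 CPM at 13 h and 12.8 and 18.2 CPM at 25 h, against 90.2 and 88.8 CPM in DMSO, and fell 5.54-fold (log2 fold change -2.47 ± 0.10 (SE), adjusted p = 3.98e-09). The Slc34a2 values at 13 h and in DMSO overlapped, whereas S100g was already lower at 13 h than in either DMSO library. Trpm6, the magnesium channel of the apical membrane, was higher at 13 h than in DMSO and then lower than in DMSO: 67.9 and 68.2 CPM in DMSO, and 101 and 99.2 CPM at 13 h and 37.0 and 33.3 CPM at 25 h (log2 fold change -1.51 ± 0.06 (SE), adjusted p = 3.98e-09). Of 10 tested genes of calcium and phosphate absorption 6 fell and 1 rose, with a median of -0.34. Atp2b1, the calcium pump that exports calcium at the basal side, fell from 1808 and 1705 CPM to 1276 and 1273 CPM, and the vitamin D receptor gene Vdr from 164 and 161 CPM to 127 and 128 CPM. The gene that rose was Cldn15, a cation-permeable tight junction claudin, from 17.8 and 19.5 CPM to 26.6 and 25.1 CPM; its adjusted p was 0.187 with thinned cells and between 0.000218 and 0.187 over 17 alternative settings.

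**Figure D1:**
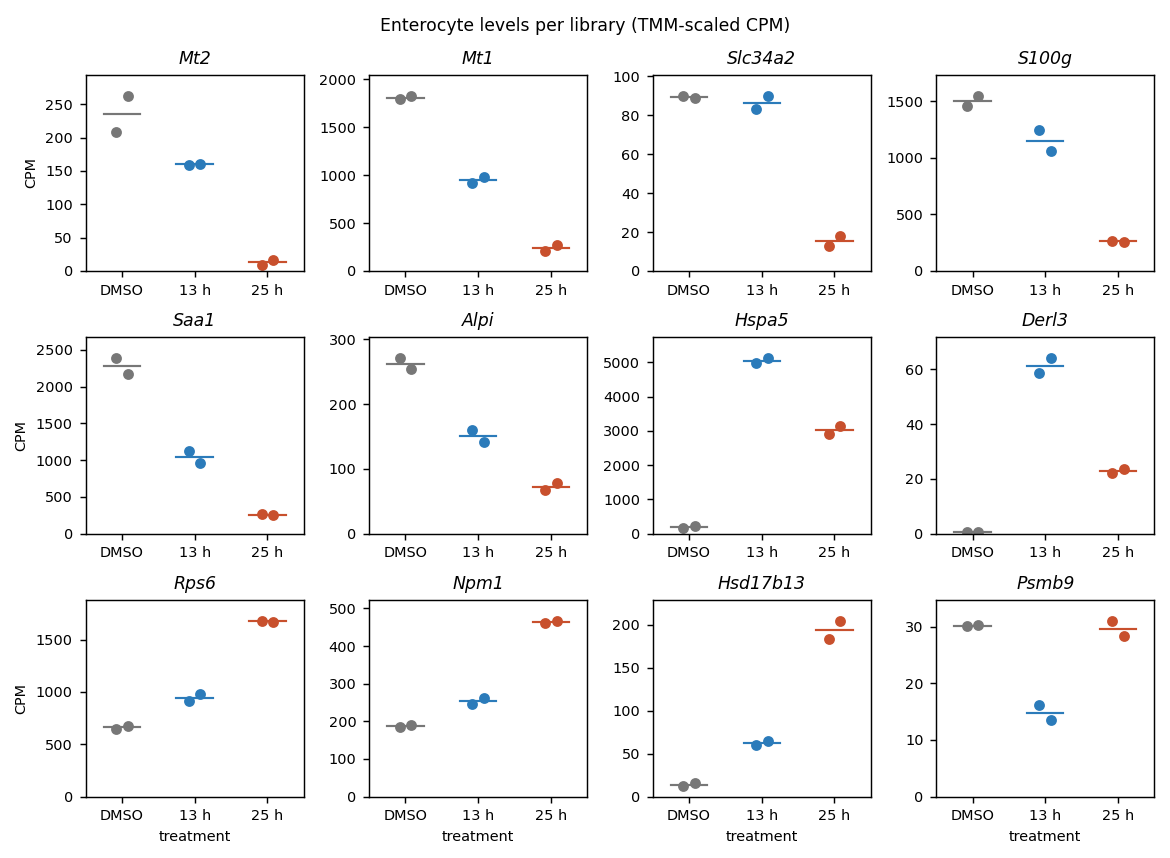
Level of 12 genes in enterocytes, in CPM, in each of the 2 libraries of DMSO, 13 h and 25 h of tunicamycin; points are libraries, lines are group means, and each vertical axis starts at 0. Mt2, Mt1, Slc34a2, S100g, Saa1 and Alpi are lowest at 25 h, Hspa5 and Derl3 lie between DMSO and 13 h, Rps6, Npm1 and Hsd17b13 are highest at 25 h, and Psmb9 at 25 h overlaps DMSO.

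These falls were read per cell after each cell was thinned to 5000 UMIs, which left out 4 and 6 enterocytes at 13 h and 2 and 4 at 25 h. Mt2 UMIs were found in a minority of cells in every library. At 13 h 10.4% and 11.7% of enterocytes had at least 1 Mt2 UMI and at 25 h 2.36% and 1.58% (unthinned, 17.8% and 18.0% against 7.75% and 4.25%). Cells with at least 5 Mt2 UMIs fell from 3.23% and 4.03% to 0.236% and 0.677%. In goblet cells, at median depths of 12927 and 11997 UMIs at 13 h and 13019 and 13437.5 at 25 h, the thinned share with an Mt2 UMI was 8.33% and 4.29% and then 0% (0 of 96 cells, which allows up to 3.12%) and 1.22%. The Mt2 shares of enterocytes at 25 h were therefore close to those of goblet cells, and free RNA was not separated from expression there. S100g was present in 35.3% and 34.0% of enterocytes at 13 h and in 15.1% and 13.1% at 25 h (unthinned, 56.0% and 54.5% against 23.5% and 22.1%). Cells with at least 5 S100g UMIs went from 15.8% and 15.3% to 4.25% and 4.51%. The tenth of enterocytes with most S100g held 86.9% and 86.0% of its UMIs at 13 h, so the summed level rests on few cells. Goblet cells with an S100g UMI made up 9.72% and 12.9% at 13 h and 2.08% and 3.66% at 25 h, below the enterocyte share of the same library. Slc34a2 went from 23.5% and 24.7% of enterocytes to 5.66% and 6.32% (unthinned, 44.5% and 45.9% against 12.2% and 16.3%), while goblet cells gave 6.94% and 7.14% and then 2.08% and 2.44%.

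For Hspa5 and Rps6 the median cell moved. Hspa5 encodes BiP, the chief Hsp70 chaperone of the ER, and its median per enterocyte went from 22 and 21 UMIs at 13 h to 13 and 13 at 25 h. Rps6, which encodes a small-subunit ribosomal protein, went from medians of 4 and 4 to 7 and 7 UMIs. At least 97.3% of enterocytes had an Rps6 UMI in each 25 h library.

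**Figure D2:**
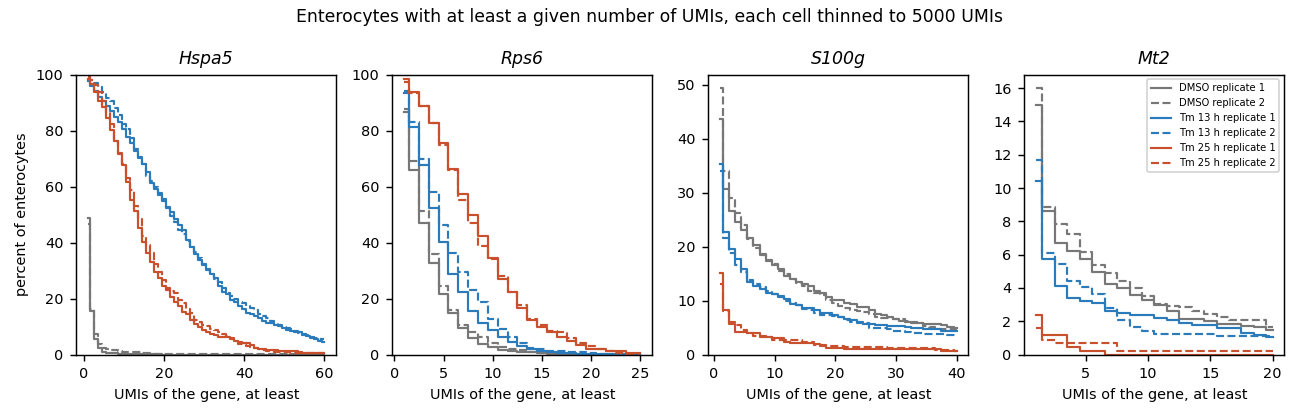
Percent of enterocytes (vertical axis) with at least the number of UMIs on the horizontal axis for Hspa5, Rps6, S100g and Mt2, after each cell was thinned to 5000 UMIs; colours are groups, solid and dashed lines the first and second library. The Hspa5 and Rps6 curves move sideways, while those of S100g and Mt2 drop at their start, where Mt2 goes from 10.4% and 11.7% of cells at 13 h to 2.36% and 1.58% at 25 h.

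Of 17 tested apolipoprotein and lipid absorption genes 10 fell, with a median of -0.31. Apoc3 and Apoa4, apolipoproteins of the chylomicron, lie in 1 cluster on chromosome 9. Apoc3 went from 377 and 392 CPM in DMSO through 165 and 145 CPM at 13 h and 67.1 and 73.6 CPM at 25 h (log2 fold change -1.13 ± 0.07 (SE), adjusted p = 1.06e-07). Apoa4 went from 153 and 178 CPM in DMSO through 67.4 and 61.1 CPM at 13 h and 35.8 and 25.4 CPM at 25 h (log2 fold change -1.08 ± 0.12 (SE), adjusted p = 2.86e-05). Apoa1, of the same cluster, differed between the 25 h libraries at 101 and 313 CPM, on either side of 239 and 241 CPM at 13 h, and did not pass (log2 fold change -0.21, adjusted p = 0.671). Without the first 25 h library it was higher at 25 h (0.38, adjusted p = 0.000185) and without the second it was lower (-1.26, adjusted p = 3.54e-09), over a range of adjusted p from 3.54e-09 to 0.970. Npc1l1, the cholesterol importer that ezetimibe blocks, fell from 57.7 and 56.3 CPM to 25.9 and 31.1 CPM (log2 fold change -0.99 ± 0.08 (SE), adjusted p = 1.04e-06). Fabp2, the intestinal fatty acid binding protein, fell from 199.8 and 188 CPM to 139 and 138 CPM, Acsl5, an acyl-CoA synthetase, from 215 and 206 CPM to 152 and 153 CPM, and Apob, the structural protein of the chylomicron, from 542 and 525 CPM to 436 and 420.4 CPM.

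Most tested sterol synthesis genes fell. Of 24 tested genes of sterol synthesis and SREBP targets, 16 fell and 8 did not pass, with a median of -0.33 against 0.0018 for all genes. Hmgcs1, which makes HMG-CoA, fell from 291 and 285 CPM to 188 and 191 CPM (log2 fold change -0.60 ± 0.05 (SE), adjusted p = 1.42e-06), after 440.4 and 472 CPM in DMSO. Idi1, Pmvk and Msmo1, enzymes of later steps, had log2 fold changes of -0.50, -0.52 and -0.49. Srebf2, which encodes the transcription factor of the pathway, stood at 96.9 and 95.7 CPM at 13 h and 79.3 and 91.4 CPM at 25 h and did not pass (-0.17, adjusted p = 0.0683); without the second 25 h library it was lower (-0.28, adjusted p = 0.00825, range 0.00825 to 0.480).

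The brush border did not move in 1 direction. Of 28 tested enzymes and microvillus proteins, 10 fell and 6 rose, with a median of -0.05. Alpi, intestinal alkaline phosphatase, fell from 160.0 and 142 CPM to 67.1 and 78.0 CPM (log2 fold change -1.05 ± 0.08 (SE), adjusted p = 3.4e-07), after 271 and 255 CPM in DMSO. Sis, sucrase-isomaltase, rose from 176 and 185 CPM to 248 and 231 CPM (log2 fold change 0.41 ± 0.05 (SE), adjusted p = 6.49e-05), where DMSO had 234 and 239 CPM. Enpep, aminopeptidase A, rose from 174 and 175 CPM to 229.9 and 265 CPM, and Myo1a, the motor of the microvillus, from 466 and 476 CPM to 564 and 566 CPM. Cdhr2, a microvillus cadherin, fell from 642 and 645 CPM to 483 and 499.7 CPM. Without the first 25 h library 3 members were higher, and without the first 13 h library 6 were lower, as they were with thinned cells. Among 21 solute carriers 11 fell and 3 rose, with a median of -0.24. Slc11a2, the apical iron carrier DMT1, fell from 1006 and 935 CPM to 564 and 596 CPM (log2 fold change -0.74 ± 0.05 (SE), adjusted p = 2.12e-07), after 1760.0 and 1692 CPM in DMSO. Slc10a2, the bile acid importer, fell from 951 and 878 CPM to 596 and 607 CPM, below the 735 and 718 CPM in DMSO, and Slc51b, a subunit of the basal bile acid exporter, from 182 and 179 CPM to 137 and 136 CPM. Slc7a7, a basal amino acid carrier subunit, rose from 59.0 and 58.1 CPM to 80.8 and 79.3 CPM. Thinning left 6 solute carriers lower. Of 24 enterocyte transcription factors 16 did not pass, among them Hnf4a at 328 and 323 CPM at 13 h and 300.4 and 305 CPM at 25 h and Cdx2 at 251 and 269 CPM at 13 h and 284 and 285 CPM at 25 h; 5 fell and 3 rose, and without the first 13 h library 2 fell, without the second 25 h library 3.

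Most tested ER chaperone genes fell. Of 24 ER chaperones and folding enzymes, 18 fell and 6 did not pass, with a median of -0.45. Hspa5 stood at 4992 and 5120.1 CPM at 13 h and 2916 and 3155 CPM at 25 h, a fall of 1.67-fold (log2 fold change -0.74 ± 0.09 (SE), adjusted p = 5.35e-05), against 159 and 214 CPM in DMSO. Hsp90b1, the ER Hsp90, fell from 2202 and 2287 CPM to 1414 and 1519 CPM, Dnajc3, a BiP co-chaperone, from 399 and 412 CPM to 254 and 257 CPM, and Pdia4, a disulfide isomerase, from 318 and 342 CPM to 191 and 208 CPM. Hyou1, an ER nucleotide exchange factor, fell from 59.4 and 55.5 CPM to 33.6 and 30.2 CPM (log2 fold change -0.85 ± 0.07 (SE), adjusted p = 2.28e-06). Canx, calnexin, stood at 588 and 605 CPM at 13 h and 553 and 539 CPM at 25 h and did not pass (-0.13, adjusted p = 0.0543); without the first 25 h library it was lower (-0.15, adjusted p = 0.0397, range 0.0148 to 0.250 over the alternatives).

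ER-associated degradation removes misfolded proteins to the proteasome, and 12 of its 21 tested genes fell, with a median of -0.24. Derl3, a derlin of the export channel, stood at 58.7 and 63.9 CPM at 13 h and 22.2 and 23.6 CPM at 25 h and fell 2.68-fold (log2 fold change -1.42 ± 0.08 (SE), adjusted p = 4.18e-08). It was below 1 CPM in both DMSO libraries. Syvn1, the ubiquitin ligase HRD1, fell from 162 and 181 CPM to 81.5 and 74.7 CPM (log2 fold change -1.14 ± 0.06 (SE), adjusted p = 4.18e-08), and its partner Sel1l from 241 and 236 CPM to 171 and 173 CPM. Herpud1, which assembles that complex, fell from 517 and 581 CPM to 331 and 332 CPM. The ER stress element, to which ATF6 binds with NF-Y, has the form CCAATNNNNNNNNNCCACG. It is shown for Hspa5, the most studied target, and Derl3, which fell most in the list; windows are the 250 bases before the RefSeq start on the + strand of GRCm38.p6, with the element on either strand in capitals.
Hspa5, chr2:34771840-34772089: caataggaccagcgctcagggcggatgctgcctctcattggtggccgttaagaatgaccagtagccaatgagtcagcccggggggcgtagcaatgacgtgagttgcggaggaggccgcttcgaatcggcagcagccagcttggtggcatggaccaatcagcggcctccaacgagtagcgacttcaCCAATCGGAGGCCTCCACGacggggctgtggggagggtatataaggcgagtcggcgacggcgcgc
Derl3, chr10:75893148-75893397: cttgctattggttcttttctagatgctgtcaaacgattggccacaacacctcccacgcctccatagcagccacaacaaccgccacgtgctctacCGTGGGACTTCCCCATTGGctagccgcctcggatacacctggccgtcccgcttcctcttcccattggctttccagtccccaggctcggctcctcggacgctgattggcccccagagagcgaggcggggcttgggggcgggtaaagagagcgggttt
Each window holds 1 match. The element occurs in 37 of 32851 windows (0.113%), and in 7 of the 19 chaperone genes and 2 of the 16 degradation genes that could be matched to the table by symbol.

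Most tested genes for entry into the ER and vesicle transport fell. Of 32 translocation and vesicle transport genes 20 fell and 2 rose, with a median of -0.29; Sec61a1, the channel itself, fell from 224 and 234 CPM to 148 and 159 CPM and Sec11c, of signal peptidase, from 278 and 276 CPM to 194 and 186 CPM. Of 27 N-glycosylation genes 12 fell, 2 rose and 13 did not pass, with a median of -0.09. Dpagt1, the target of the drug, stood at 39.2 and 38.2 CPM at 13 h and 24.4 and 26.8 CPM at 25 h (log2 fold change -0.59 ± 0.09 (SE), adjusted p = 0.000308), against 17.1 and 14.4 CPM in DMSO. Gfpt1, which starts the synthesis of the sugar donor, fell from 248 and 254 CPM to 166 and 163 CPM, and the oligosaccharyltransferase genes Ddost and Stt3a from 339 and 349 CPM to 237 and 244 CPM and from 134 and 140.3 CPM to 91.8 and 101 CPM. Rpn2 and Stt3b of the same enzyme stood at 185 and 196 CPM at 13 h and 201 and 205 CPM at 25 h and at 194 and 195 CPM at 13 h and 186 and 190.0 CPM at 25 h, and neither passed.

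The signalling arms differed from gene to gene. Of 12 sensors and transcription factors 3 fell, 1 rose and 8 did not pass, with a median of -0.18. Over all genes tested 10.9% fell and 10.4% rose. Atf6 fell (log2 fold change -0.48 ± 0.07 (SE), adjusted p = 0.000164), and Eif2ak3, the PERK gene, stood at 13.7 and 13.3 CPM at 13 h and 8.81 and 11.6 CPM at 25 h and did not pass (-0.39, adjusted p = 0.0777). Eif2ak3 was lower without the second 25 h library (-0.62, adjusted p = 0.0298) and with no filter on low counts (-0.41, adjusted p = 0.0306), and not with thinned cells (0.12, adjusted p = 0.845, the highest of the range from 0.0298). Xbp1, the transcript that IRE1 splices, stood at 283 and 290.0 CPM at 13 h and 249 and 259.6 CPM at 25 h. Its log2 fold change was -0.17 (adjusted p = 0.0205), and the call ended in 5 of 17 alternatives, without either 13 h library or the first 25 h library among them, where adjusted p ran from 0.00497 to 0.126. Splicing cannot be read from 3′ counts. Qrich1, a regulator of the later response, stood at 40.5 and 44.2 CPM at 13 h and 43.7 and 39.0 CPM at 25 h and did not pass.

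Of 21 genes of the PERK-ATF4-CHOP branch 8 fell, 1 rose and 12 did not pass, with a median of -0.19. Ddit3, which encodes CHOP, stood at 1349 and 1284 CPM at 13 h and 758 and 786 CPM at 25 h and fell 1.71-fold (log2 fold change -0.77 ± 0.09 (SE), adjusted p = 2.74e-05), against 64.6 and 88.2 CPM in DMSO. Atf4 itself stood at 333 and 347 CPM at 13 h and 307 and 307 CPM at 25 h, and its log2 fold change of -0.15 (adjusted p = 0.0422) lost the call in 7 of 17 alternatives, with each tunicamycin library left out among them, over adjusted p from 0.0147 to 0.224. Chac1, a glutathione-degrading target of the branch, fell from 61.9 and 58.1 CPM to 37.9 and 35.5 CPM, and Ddit4, an inhibitor of mTORC1, from 73.1 and 80.8 CPM to 50.4 and 53.7 CPM. Atf5, a related transcription factor, was the member that rose, from 134 and 146 CPM to 189.6 and 186 CPM (log2 fold change 0.42 ± 0.05 (SE), adjusted p = 5.23e-05), with 12.4 and 12.4 CPM in DMSO. Eif4ebp1, a repressor of cap-dependent translation, stood at 415 and 403 CPM at 13 h and 429 and 436 CPM at 25 h and Nupr1 at 694 and 741 CPM at 13 h and 673 and 662 CPM at 25 h, and neither passed. Without the second 13 h library 5 members fell, and without the first 25 h library 4.

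Amino acid supply is a known output of ATF4. Among 21 tested genes for making and importing amino acids 12 fell, with a median of -0.29 (6 fell with thinned cells). The summed level of the list was 398 and 430 CPM in DMSO, 1460 and 1507 CPM at 13 h and 1220 and 1253 CPM at 25 h. Slc7a11, the cystine importer, fell from 53.5 and 58.1 CPM to 38.9 and 37.5 CPM, Slc7a5, the leucine carrier, from 25.2 and 27.8 CPM to 15.7 and 15.7 CPM (log2 fold change -0.76 ± 0.10 (SE), adjusted p = 0.00014), and Mthfd2, of mitochondrial folate metabolism, from 127 and 133 CPM to 107 and 106 CPM. Psat1, of serine synthesis, stood at 25.6 and 25.5 CPM at 13 h and 21.3 and 23.1 CPM at 25 h and did not pass. Of 20 cytosolic aminoacyl-tRNA synthetases, which charge tRNAs, 11 fell and 2 rose, with a median of -0.22. Their summed level was 661 and 667 CPM in DMSO, 1604 and 1662 CPM at 13 h and 1404 and 1422 CPM at 25 h. Cars and Wars, for cysteine and tryptophan, had log2 fold changes of -0.46 and -0.45, and Aars, for alanine, of -0.31. Without the second 13 h library 6 synthetases fell, and without the first 25 h library 7, against 6 by DESeq2 and 7 with thinned cells.

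**Figure D3:**
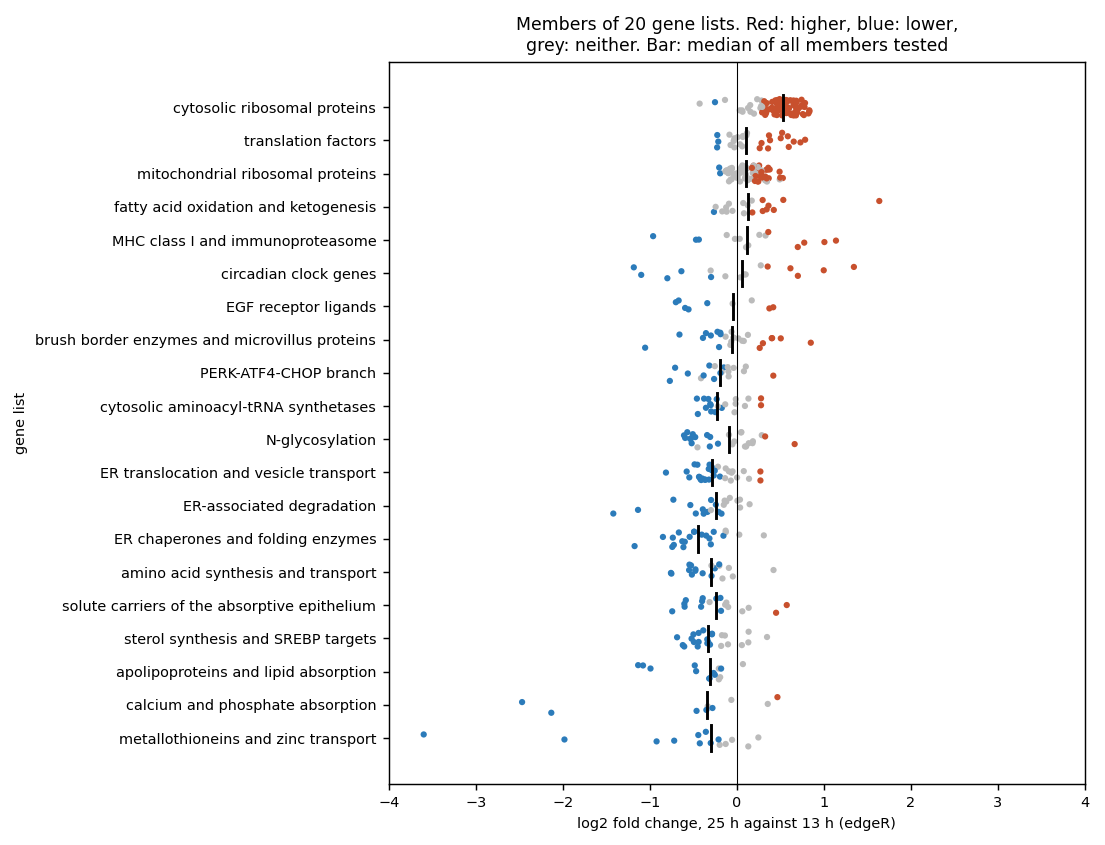
Log2 fold change at 25 h against 13 h (horizontal axis) of the members of 20 gene lists (rows) in enterocytes; each point is a gene with a mean of at least 5 CPM, red where higher and blue where lower at an adjusted p below 0.05, and black bars are medians over all members tested. The bar of cytosolic ribosomal proteins is at 0.53 and that of ER chaperones at -0.45, and the 27 members below 5 CPM are not drawn.

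Of 81 tested cytosolic ribosomal protein genes 66 were higher and 1 was lower, with a median of 0.53. Rps6, at chr4:86854660-86857412, stood at 909 and 982 CPM at 13 h and 1676 and 1670.1 CPM at 25 h, against 645 and 674 CPM in DMSO, a rise of 1.77-fold (log2 fold change 0.82 ± 0.05 (SE), adjusted p = 6.58e-08). Rpl3, a large-subunit protein next to the catalytic centre, rose from 384 and 392 CPM to 688 and 697 CPM, Rpl4 from 983 and 1033 CPM to 1708 and 1750.2 CPM, and Rpl14 from 745 and 775 CPM to 1284 and 1310.1 CPM. The gene that fell was Rpl22l1, named after its values were seen, with a log2 fold change of -0.25. The median share of an enterocyte's UMIs from these genes ran from 9.43% and 10.0% at 13 h to 13.7% and 14.5% at 25 h, where DMSO cells had 7.27% and 7.52%. The 14 members that did not pass all had more in the second 25 h library than in the first, as did 62 of the 66 that rose. Rpl41, the shortest of the ribosomal proteins, for example stood at 3604 and 3571 CPM at 13 h and 2918 and 4423 CPM at 25 h, and Rps29 at 1905 and 1899 CPM at 13 h and 1969.7 and 2651 CPM at 25 h. Rpl41 was lower without the second 25 h library (-0.30, adjusted p = 0.00178) and higher without the first (0.30, adjusted p = 0.00198), over a range of 0.00178 to 0.975. Rps29 was higher in 5 of 17 alternatives, without the first 25 h library among them (0.48, adjusted p = 2.09e-05, range 2.09e-05 to 0.647). Ribosomal protein genes have many near-identical pseudogene copies, and how reads shared with them were counted is not given.

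Of 27 translation factors 12 rose and 3 fell, with a median of 0.11. Eef1a1, which brings aminoacyl-tRNA to the ribosome, rose from 2833 and 2791 CPM to 4642 and 4693 CPM (log2 fold change 0.73 ± 0.04 (SE), adjusted p = 6.58e-08), Eef1g from 311 and 339 CPM to 561 and 559 CPM, and Eef2, the translocase, from 1371 and 1389.5 CPM to 1957 and 2003 CPM. Eif3e and Eif3f, subunits of the initiation factor that binds the small subunit, rose from 191 and 196 CPM to 310.1 and 299.7 CPM and from 541 and 558 CPM to 818 and 844 CPM. Eif2s2, the beta subunit of eIF2, stood at 2479 and 2463 CPM at 13 h and 2305 and 2516 CPM at 25 h and did not pass. Npm1, the nucleolar chaperone nucleophosmin, rose 1.82-fold from 247 and 262 CPM to 461 and 466 CPM (log2 fold change 0.86 ± 0.05 (SE), adjusted p = 4.18e-08). In its list of 21 genes of ribosome biogenesis and the nucleolus 2 rose, Npm1 among them, where 10.4% of all genes rose. The other 19 did not pass, and the list had a median of 0.08 and a range of -0.89 to 0.86. Nop58 and Nolc1 had fitted values of -0.31 and -0.28, and Fbl and Nhp2 of 0.32 and 0.30. Snhg12, a non-coding host of small nucleolar RNAs, rose from 20.7 and 19.6 CPM to 49.0 and 51.0 CPM (log2 fold change 1.31 ± 0.07 (SE), adjusted p = 5.92e-08). Among 78 mitochondrial ribosomal protein genes 23 rose and 2 fell, with a median of 0.11; Mrpl30 rose from 154 and 164 CPM to 218 and 229.8 CPM. That count was 10 without the first 13 h library, 14 without the first 25 h library, 7 by DESeq2 and 6 with thinned cells.

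Hsd17b13, which encodes a lipid droplet enzyme, had the highest fold change among well-measured genes. It went from 12.3 and 15.2 CPM in DMSO through 59.9 and 64.4 CPM at 13 h and 183 and 204 CPM at 25 h, a rise of 3.11-fold (log2 fold change 1.64 ± 0.07 (SE), adjusted p = 5.51e-09). It was placed in a list of fatty acid oxidation and ketogenesis genes, of which 8 of 19 rose, Hsd17b13 among them, and 1 fell. The median was 0.13. Acaa2, the last enzyme of mitochondrial beta-oxidation, rose from 45.1 and 46.7 CPM to 67.1 and 66.0 CPM (log2 fold change 0.53 ± 0.06 (SE), adjusted p = 3.38e-05), and Hadh, the step before it, from 165 and 165 CPM to 219.7 and 223 CPM. Both had been lower at 13 h than in DMSO, where Acaa2 stood at 82.2 and 87.9 CPM and Hadh at 282 and 296 CPM. Hadhb, of the trifunctional enzyme, stood at 93.4 and 92.8 CPM at 13 h and 103 and 100.2 CPM at 25 h and did not pass. DESeq2 called 5 members higher and thinned cells 4.

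Transcripts of the mitochondrial genome were slightly lower, in 5 of 13 genes, with a median of -0.16. The cells were chosen by their share of these same transcripts, so the values describe only the cells kept. That filter removed 20 of 706 and 16 of 742 enterocytes at 13 h, and 4 of 430 and 6 of 453 at 25 h. mt-Co1, a subunit of cytochrome oxidase, fell from 30770.3 and 31513 CPM to 26318 and 25691 CPM (log2 fold change -0.26 ± 0.04 (SE), adjusted p = 0.000163). The number that fell was 3 with thinned cells and 3 when cells were held to at most 10% mitochondrial UMIs. Nuclear genes of oxidative phosphorylation went both ways, 13 of 79 higher and 19 lower, with a median of -0.02. Over all genes tested 10.4% were higher and 10.9% lower. Cox7a1, a heart and muscle type subunit of cytochrome oxidase, fell from 70.1 and 70.3 CPM to 31.9 and 35.9 CPM (log2 fold change -1.05 ± 0.07 (SE), adjusted p = 1.38e-07), and Cox7a2l rose from 539 and 539.8 CPM to 766 and 779 CPM. These counts moved with single libraries: 8 fell without the first 13 h library, 10 without the second, 10 without the first 25 h library and 33 without the second, and 6 and 8 rose without the first and second 13 h library. Of 19 glycolysis genes 5 rose, 5 fell and 9 did not pass, with a median of -0.0068; Hk2, an inducible hexokinase, fell from 119 and 118 CPM to 67.4 and 73.3 CPM (log2 fold change -0.75 ± 0.06 (SE), adjusted p = 4.39e-07), with 61.1 and 61.0 CPM in DMSO.

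The clock genes changed in both directions. In the circadian loop CLOCK and BMAL1, encoded by Arntl, or NPAS2 in the place of CLOCK, activate Per, Cry, Nr1d1 and Dbp genes, whose products feed back. DBP activates and NFIL3 represses through a shared D-box. Of 16 tested clock genes 5 rose and 5 fell, with a median of 0.06. Dbp went from 72.7 and 70.2 CPM in DMSO through 44.5 and 38.2 CPM at 13 h and 103 and 107 CPM at 25 h (log2 fold change 1.35 ± 0.07 (SE), adjusted p = 2.53e-08), so that 13 h was the lowest group and 25 h the highest. Per3 stood at 28.8 and 24.4 CPM at 13 h and 50.9 and 55.1 CPM at 25 h (log2 fold change 1.00 ± 0.09 (SE), adjusted p = 1.82e-06), with 45.6 and 48.6 CPM in DMSO. Nr1d1, the repressor REV-ERB alpha, rose from 28.6 and 27.9 CPM to 46.8 and 45.1 CPM (log2 fold change 0.70 ± 0.07 (SE), adjusted p = 7.25e-06), with 49.6 and 50.7 CPM in DMSO. Nfil3 ran opposite at a low level, with 5.34 and 4.77 CPM in DMSO and 11.3 and 11.7 CPM at 13 h and 5.16 and 4.96 CPM at 25 h (log2 fold change -1.18 ± 0.16 (SE), adjusted p = 0.000108). Its call ended with thinned cells (adjusted p = 0.0735, range 1.09e-08 to 0.0735). Cry1, a repressor of the loop, fell from 27.7 and 25.6 CPM to 15.1 and 15.5 CPM (log2 fold change -0.80 ± 0.10 (SE), adjusted p = 4.97e-05), and Npas2 from 53.7 and 48.7 CPM to 34.1 and 31.7 CPM (log2 fold change -0.64 ± 0.08 (SE), adjusted p = 3.73e-05). Clock and Per2 did not pass, with Clock at 54.2 and 47.2 CPM at 13 h and 45.4 and 46.8 CPM at 25 h. All sets were harvested together, and the drug was added at different times before harvest. Phase was not measured, and the cause of the clock gene changes was not tested.
The 250 bases before the start of Per3 are printed, as the window that holds the D-box TTATGNAA (either strand, in capitals) more than once among these genes, with the gene on the minus strand of GRCm38.p6.
Per3, chr4:151044666-151044915: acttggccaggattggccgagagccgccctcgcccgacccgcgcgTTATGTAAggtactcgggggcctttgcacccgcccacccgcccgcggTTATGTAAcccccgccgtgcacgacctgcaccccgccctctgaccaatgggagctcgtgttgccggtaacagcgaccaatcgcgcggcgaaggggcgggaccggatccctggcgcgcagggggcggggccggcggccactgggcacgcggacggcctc
It holds 2 matches. Of all windows 3.07% hold at least 1 and 0.128% at least 2, and of 13 clock genes matched to the table Per1 and Per3 hold 1 or more.

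**Figure D4:**
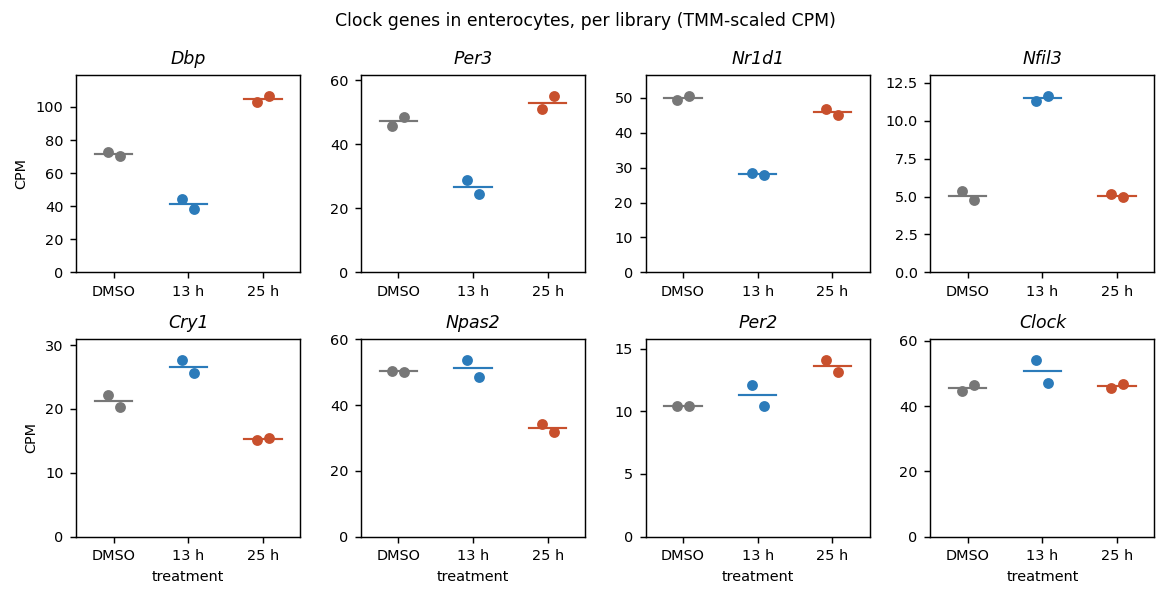
Level of 8 clock genes in enterocytes in CPM by treatment; points are the 2 libraries of a group, lines are means, axes start at 0. Dbp, Per3 and Nr1d1 are lowest at 13 h, Nfil3 is highest there, Cry1 and Npas2 are lowest at 25 h, and Per2 and Clock did not pass the test.

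Defence genes were mixed. Saa1, an acute-phase serum amyloid that epithelium makes on microbial or cytokine signals, went from 2385 and 2174 CPM in DMSO through 1125 and 968 CPM at 13 h and 267 and 248 CPM at 25 h, a fall of 4.06-fold between 13 h and 25 h (log2 fold change -2.02 ± 0.07 (SE), adjusted p = 7.96e-10). Of 16 acute-phase and antimicrobial genes 4 rose and 3 fell, with a median of -0.13, where 10.4% of all genes rose and 10.9% fell. Nos2, inducible nitric oxide synthase, rose from 59.2 and 56.1 CPM to 70.1 and 80.1 CPM. Reg3b and Reg3g, antimicrobial lectins, passed as higher, but Reg3b stood at 5.75 and 3.61 CPM at 13 h and 8.69 and 50.0 CPM at 25 h and Reg3g at 3.37 and 3.76 CPM at 13 h and 4.91 and 27.7 CPM at 25 h, so that 1 library carried both. Without the second 25 h library the log2 fold change of Reg3b was 0.90 and that of Reg3g 0.45 (adjusted p = 0.144 and 0.415, with ranges of 3.84e-16 to 0.144 and 2.32e-12 to 0.415), and both also missed the threshold by DESeq2 and without the second 13 h library, as Reg3g did without the first.

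Antigen presentation genes changed in both directions. Of 16 genes of MHC class I and the immunoproteasome 5 rose and 3 fell, with a median of 0.12. The immunoproteasome subunits Psmb9 and Psmb10 rose, Psmb9 from 16.1 and 13.5 CPM to 31.0 and 28.4 CPM (log2 fold change 1.01 ± 0.10 (SE), adjusted p = 7.25e-06) and Psmb10 from 48.1 and 45.4 CPM to 81.2 and 70.9 CPM (log2 fold change 0.70 ± 0.07 (SE), adjusted p = 7.13e-06). In DMSO they stood at 30.1 and 30.2 CPM and at 89.1 and 87.9 CPM, above both 13 h libraries. B2m, the light chain of class I molecules, fell from 1104 and 1128 CPM to 839 and 809.6 CPM (log2 fold change -0.44 ± 0.04 (SE), adjusted p = 7.25e-06), and H2-Q1, a non-classical heavy chain, from 132 and 134 CPM to 69.4 and 66.9 CPM. The classical heavy chains H2-K1 and H2-D1 stood at 1039 and 1041 CPM at 13 h and 977 and 942 CPM at 25 h and at 719 and 711 CPM at 13 h and 772 and 692 CPM at 25 h, and neither passed; without the first 25 h library H2-K1 was lower (-0.15, adjusted p = 0.0285, range 0.0253 to 0.513). H2 genes are near-identical in part. Of 26 interferon-stimulated genes 6 rose and 2 fell, with a median of 0.07, where 10.4% of all genes rose and 10.9% fell. Irf7, a factor of the type I interferon response, fell from 152 and 143 CPM to 119.6 and 108 CPM, and Ifit1 stood at 47.8 and 41.7 CPM at 13 h and 43.1 and 42.4 CPM at 25 h and did not pass, with 173 and 170.4 CPM in DMSO. Without the second 13 h library 2 interferon genes rose and without the first 25 h library 1, against 2 by DESeq2, 2 with thinned cells and 1 among genes of at least 20 CPM.

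Areg and Ereg, which encode amphiregulin and epiregulin for the EGF receptor, stood at 266 and 283 CPM at 13 h and 178 and 167 CPM at 25 h and at 52.8 and 54.2 CPM at 13 h and 32.0 and 33.8 CPM at 25 h, with 24.5 and 31.8 CPM in DMSO and 6.28 and 7.33 CPM in DMSO. Their log2 fold changes were -0.67 and -0.70 (adjusted p = 1.82e-05 and 1.15e-05). The receptor genes Erbb2 and Erbb3 rose, from 55.2 and 56.3 CPM to 74.7 and 74.5 CPM and from 131 and 124 CPM to 164 and 166 CPM, and Errfi1, an inhibitor of the receptor, fell from 81.4 and 85.7 CPM to 52.0 and 58.6 CPM. In that list of 11, 5 fell and 2 rose, with a median of -0.05 (3 fell without the first 13 h library). Ccl20, the chemokine that draws CCR6-bearing lymphocytes to the gut, fell from 677 and 738 CPM to 409 and 432 CPM (log2 fold change -0.75 ± 0.06 (SE), adjusted p = 1.19e-06), and Irf1 rose from 48.0 and 45.7 CPM to 64.1 and 63.7 CPM; in their list of 16 NF-kB and chemokine genes 4 fell and 2 rose, with a median of -0.11. Fos, an immediate early subunit of AP-1, fell from 86.1 and 72.4 CPM to 41.0 and 39.2 CPM (log2 fold change -0.98 ± 0.08 (SE), adjusted p = 1.44e-06), and Dusp6, a phosphatase that ERK induces, from 32.7 and 34.7 CPM to 21.9 and 17.9 CPM. In that list of 18, 6 fell and 2 rose, with a median of -0.18.

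Hspa8, the constitutive Hsp70 of the cytosol, rose 1.78-fold from 864 and 876 CPM to 1520.5 and 1571 CPM (log2 fold change 0.83 ± 0.04 (SE), adjusted p = 2.53e-08), and Hsp90ab1, a cytosolic Hsp90, rose from 241 and 245 CPM to 356 and 366 CPM, whereas Bag3, a co-chaperone, fell from 23.5 and 24.4 CPM to 15.1 and 14.2 CPM; 3 of 18 heat shock genes rose and 2 fell, with a median of 0.05. Of 30 apoptosis regulators 22 did not pass, 5 fell and 3 rose, with a median of -0.0028. Over all genes tested 10.4% rose and 10.9% fell, the shares to set beside each list count here. Casp8 fell from 107 and 103 CPM to 74.9 and 63.8 CPM and Mcl1 from 129 and 127 CPM to 100.2 and 111 CPM. Among 18 p53 targets Cdkn1a, the cell cycle inhibitor p21, rose from 541 and 502 CPM to 613 and 649 CPM and Ccng1 from 72.0 and 65.4 CPM to 87.9 and 95.7 CPM; 5 rose and 2 fell in all, with 3 rising without the first 13 h or the first 25 h library. Of 19 cell cycle genes 16 did not pass, and Pcna, the replication clamp, fell from 34.2 and 32.3 CPM to 20.9 and 18.6 CPM (log2 fold change -0.76 ± 0.09 (SE), adjusted p = 4.54e-05). Among 29 NRF2 targets and antioxidant genes 4 rose and 7 fell, with a median of 0.05; Gpx1, a glutathione peroxidase, rose from 133 and 142 CPM to 215 and 213 CPM and Ftl1, ferritin light chain, fell from 4299 and 4174 CPM to 3503 and 3621 CPM. Of 31 proteasome subunits 26 did not pass, 4 rose and 1 fell, with a median of -0.02; Psmb1, a core subunit, rose from 324 and 335 CPM to 389.7 and 400.4 CPM.

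Further genes had large changes. H2-Q10, a secreted class I relative, fell from 38.5 and 35.2 CPM to 11.5 and 12.8 CPM, and Tnfrsf11b, osteoprotegerin, from 46.3 and 50.2 CPM to 21.0 and 21.8 CPM. Ces2e, a carboxylesterase, fell from 78.2 and 79.7 CPM to 33.2 and 34.2 CPM. Axin2, a feedback inhibitor of Wnt signalling, fell from 38.5 and 35.4 CPM to 16.1 and 19.6 CPM (log2 fold change -1.04 ± 0.10 (SE), adjusted p = 5.62e-06). Among those that rose, Csrp2, a LIM-domain protein, went from 16.3 and 18.4 CPM to 39.3 and 41.6 CPM (log2 fold change 1.22 ± 0.09 (SE), adjusted p = 3.4e-07), Hmgn1, a nucleosome-binding protein, from 15.6 and 15.6 CPM to 34.7 and 35.5 CPM (log2 fold change 1.17 ± 0.10 (SE), adjusted p = 1.52e-06), and Edn1, endothelin-1, from 20.1 and 18.8 CPM to 39.0 and 35.1 CPM. Nlrp6, an inflammasome sensor of gut epithelium, rose from 18.1 and 19.9 CPM to 34.9 and 33.7 CPM, and Ly6a, Sca-1, from 64.0 and 60.8 CPM to 123 and 103 CPM.

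Goblet genes were present in the enterocyte class, and their part in the results above was not tested. The summed level of 16 goblet markers was 3325 and 3191 CPM at 13 h and 2975 and 2378 CPM at 25 h, mostly from Fcgbp and Tff3, while Muc2, the defining mucin, stood at 9.62 and 7.22 CPM at 13 h and 12.3 and 10.7 CPM at 25 h. Of 11 tested goblet markers 3 fell, 1 rose and 7 did not pass, where 10.9% of all genes fell and 10.4% rose. Fcgbp, a mucus-linked protein, fell from 1677 and 1629 CPM to 1325 and 1201 CPM, and Tff3, a trefoil peptide, stood at 1415 and 1281 CPM at 13 h and 1481 and 1083 CPM at 25 h and did not pass; without the first 25 h library it was lower (-0.32, adjusted p = 0.000558, range 0.000558 to 0.994). Zg16, a lectin of the mucus, stood at 155 and 207 CPM at 13 h and 71.5 and 27.0 CPM at 25 h (log2 fold change -1.90 ± 0.27 (SE), adjusted p = 0.00015), and its 25 h libraries stood apart from each other; without the first of them the log2 fold change was -2.75, and without the second -1.35. Leaving out 23 enterocytes that Scrublet called doublets gave 1139 higher and 1197 lower genes.

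The change between 13 h and 25 h was compared with that of goblet cells, which had 77 and 75 cells at 13 h and 98 and 86 at 25 h. Of 10458 genes tested for the difference between the classes, 54 (0.516%) passed, 23 with the larger rise or smaller fall in enterocytes and 31 the other way. Mt2, Mt1, S100g, Slc34a2, Hspa5 and Rps6 were not among them. For S100g the difference was -1.52 ± 0.56 (SE, adjusted p = 0.331) and for Rps6 -0.16 ± 0.10 (adjusted p = 0.675), so the goblet libraries left an S100g difference of this size undecided. Clu, clusterin, an extracellular chaperone of regenerating gut, fell in enterocytes and rose in goblet cells, where it stood at 19.4 and 20.5 CPM at 13 h and 65.8 and 44.2 CPM at 25 h (difference -1.84 ± 0.24, adjusted p = 2.38e-05). In the fit on enterocytes alone it fell from 156 and 163 CPM to 124 and 128 CPM, a call that ended with thinned cells (adjusted p = 0.0989, range 3.41e-07 to 0.0989). Chchd10, of the mitochondrial intermembrane space, rose in both classes and more in goblet cells (-0.89 ± 0.10, adjusted p = 2.66e-06). Areg fell in enterocytes and did not pass in goblet cells, with 218 and 231 CPM in goblet cells at 13 h and 250.2 and 227 CPM at 25 h (-0.78 ± 0.13, adjusted p = 0.00101). Nupr1, a stress-induced cofactor, stood at 681 and 726 CPM and then 651 and 639 CPM in enterocytes, scaled with the goblet sums, and fell in goblet cells from 1447 and 1918 CPM to 833 and 855 CPM (0.86 ± 0.12, adjusted p = 2.89e-05). The 23 and 31 differences became 7 to 22 and 6 to 30 with 1 library left out. The 4 described passed with each of the 6 libraries left out in turn.

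**Figure D5:**
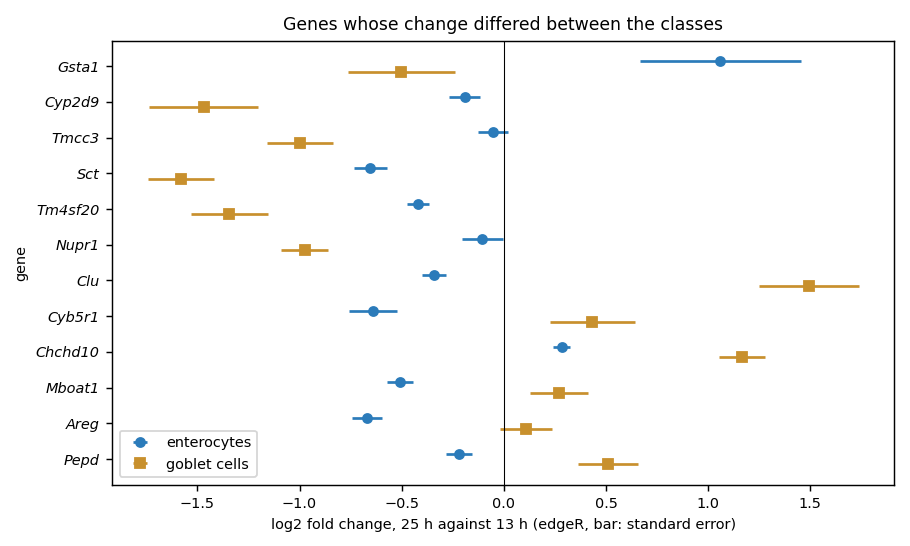
Log2 fold change at 25 h against 13 h (horizontal axis) in enterocytes (circles) and goblet cells (squares) for 12 genes. Of those with at least 20 CPM in both classes, these had the highest and lowest differences between classes. Bars are standard errors derived from the F statistic. Clu is left of 0 in enterocytes and right of 0 in goblet cells, and Sct is left of 0 in both and further left in goblet cells.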

How the data were processed

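Deposited data were raw UMI counts per gene and cell in a single matrix of 27998 genes and 5122 cells, made by the authors with Cell Ranger against mm10, per the submitters' processing notes; the sources used here give no version, cell filter or way of assigning classes. Cell names give library and class. Symbols were matched by gene identifier (27645 matched), and gene positions and types came from GENCODE vM21. Enterocytes with at most 25% mitochondrial UMIs were summed per library, and 94 of 4462 were removed. Barcodes shared between libraries numbered 12, 6 among enterocytes, and were kept apart. Replicate libraries differed by more than counting noise (chi-square per degree of freedom 2.38 to 4.18). All 6 libraries entered 1 fit in edgeR 4.0.16 (R 4.3.3; TMM scaling, filterByExpr, quasi-likelihood F test, Benjamini-Hochberg adjustment over all genes tested, threshold 0.05); the contrast was 25 h minus 13 h. Standard errors (SE) were derived from the test, as the absolute log2 fold change divided by the square root of the F statistic. Classes were compared by the interaction of class and group with library as a block. Scrublet in scanpy 1.11.5 called 31 cells (0.605%) doublets, which were kept in the main analysis. Intervals and the limit for a count of 0 (3 cells) cover counting error only.

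The rule for naming took, from called genes averaging 20 CPM or more whose libraries did not overlap, the top 20 and bottom 20 by fold change; per list up to 6 with the lowest adjusted p and up to 3 not called with the highest level; the 6 highest and 6 lowest class differences with at least 20 CPM in both classes; and 11 fixed genes. Not all of these are printed, and some items are not reported here. The members, the 48 lists and the rule were chosen with earlier results of these data known, and so were the motifs. Promoter windows are RefSeq sequences of GRCm38.p6, matched by symbol. Lists are described by counts and medians, without a test of the list. Alternatives were DESeq2 1.42.0, other scalings and filters, other cell filters, thinning, a replicate block, and each library left out.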

Additional observations from a re-analysis of the deposited data

Results flagged for a closer look

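By the interaction test the change from 13 h to 25 h differed between enterocytes and goblet cells for 54 genes. Of these, 46 had at least 20 CPM in both classes, and the 6 highest and 6 lowest differences among the 46 are given here. Values are the log2 fold change in enterocytes minus that in goblet cells. Differences above 0 were those of Gsta1, a glutathione transferase (1.49), Cyp2d9, a cytochrome P450 (1.28), Tmcc3 (0.94), Sct, secretin (0.92), Tm4sf20 (0.91) and Nupr1 (0.86). Differences below 0 were those of Clu (-1.84), Cyb5r1 (-1.09), Chchd10 (-0.89), Mboat1 (-0.78), Areg (-0.78) and Pepd, a dipeptidase (-0.73). Gsta1 stood at 32.4 and 67.8 CPM in the enterocyte libraries of 25 h, and its difference did not pass without either 13 h library, without the second 25 h library or without the first DMSO library. The Cyp2d9 difference did not pass when any of 5 of the 6 libraries was left out. With the 4 tunicamycin libraries alone neither the Gsta1 nor the Cyp2d9 difference passed. That of Gsta1 also did not pass with cells held to at most 10% mitochondrial UMIs. Those of Tmcc3 and Tm4sf20 did not pass without the second 13 h or the second 25 h library, and that of Sct without the second 13 h or the first 25 h library. The Mboat1 difference did not pass without the first 13 h or the second 25 h library, that of Cyb5r1 also without the second 13 h library, and that of Pepd without either 13 h library or the first 25 h library. Nupr1, Clu, Chchd10 and Areg passed with every library left out in turn.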

How the results depend on the processing

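The counts of 1163 higher and 1217 lower genes became 532 and 721 with DESeq2, each of which was also called in the edgeR fit, and 482 and 511 with cells thinned to 5000 UMIs. With 1 library left out they were 766 to 996 and 836 to 1093, lowest without the first 13 h library. No gene called in the main fit was called in the opposite direction in any of the 17 alternatives, and the other counts stayed within 1.5 times. The 23 and 31 class differences became 40 and 57 with no filter on low counts, 14 and 17 with the 4 tunicamycin libraries alone, and 7 to 22 and 6 to 30 with 1 library left out. The replicate numbers did not pair the libraries (correlations of deviations -0.085 to 0.0084 over 5056 genes), and a fit with the replicate block called 1071 higher and 1125 lower. Over the lists and alternatives 30 of 794 medians changed sign and 215 of 1588 counts moved by over 1.5 times. Named genes that passed kept their direction in all 17 alternatives. Some that did not pass changed sign in their log2 fold change. With 1 library left out the values ran, for Apoa1 from -1.26 to 0.38, Tff3 from -0.32 to 0.13, Ifit1 from -0.16 to 0.0305, Qrich1 from -0.13 to 0.0388, Eif2s2 from -0.10 to 0.0224, H2-D1 from -0.0511 to 0.11, Rpl41 from -0.30 to 0.30. At most 10% mitochondrial UMIs gave 0.0192 for Tff3, 0.0665 for Ifit1, 0.0069 for Qrich1, -0.0049 for H2-D1, -0.0241 for Rpl41, -0.0003 for Eif4ebp1. Thinned cells gave 0.12 for Eif2ak3, 0.0458 for Qrich1. The cause was not tested. With 2 libraries a group, small changes of genes with few UMIs may not be detectable.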

Other observations

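The junction, lysosome and detoxification lists each had members that rose and members that fell. Over all genes tested 10.4% rose and 10.9% fell. Of 24 tight and adherens junction genes 14 did not pass, 7 fell and 3 rose, with a median log2 fold change of -0.05 (4 fell and 1 rose with thinned cells). Cldn3, a tightening claudin, rose from 836 and 832 CPM to 1103 and 1088 CPM (log2 fold change 0.39 ± 0.04 (SE), adjusted p = 2.77e-05), and Cdh1, E-cadherin, fell from 327 and 321 CPM to 268 and 262 CPM (log2 fold change -0.29 ± 0.05 (SE), adjusted p = 0.000398). Of 27 autophagy and lysosome genes 16 did not pass, 6 fell and 5 rose, with a median of -0.08. With thinned cells 3 fell and 1 rose, and 2 rose without the first 13 h library. Sqstm1, the autophagy receptor p62, fell from 193 and 197 CPM to 145 and 156 CPM (log2 fold change -0.37 ± 0.05 (SE), adjusted p = 0.000122), with 86.8 and 91.2 CPM in DMSO. Of 26 genes of xenobiotic and alcohol metabolism 18 did not pass, 5 fell and 3 rose, with a median of -0.06 (3 fell with thinned cells). Cyp2c55 fell from 2281 and 2368 CPM to 1827 and 1658 CPM (log2 fold change -0.42 ± 0.05 (SE), adjusted p = 3.86e-05), and Cyp2s1 rose from 151 and 147 CPM to 213 and 228 CPM (log2 fold change 0.57 ± 0.05 (SE), adjusted p = 2.35e-06).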
